A study of Mus musculus with 2 samples.

Results

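The 49 genes described here are the core genes of Wnt signalling among 21911 protein-coding mouse genes. They were chosen by name from the GENCODE M21 annotation: every Wnt, frizzled (Fzd), dickkopf (Dkk), secreted frizzled-related (Sfrp) and dishevelled (Dvl) gene, with Axin1, Axin2, Lrp5, Lrp6, Ctnnb1, Lef1, Tcf7, Tcf7l1 and Tcf7l2. The rule uses names alone and no measured value. The hippocampus of male B6CASTF1/J mice, 14 days old, was studied by DNase-seq, an assay that maps accessible chromatin by sequencing the ends left where DNase I has cut. These animals are first-generation hybrids of C57BL/6 and CAST/EiJ mice, and their reads were placed on the mm10 (GRCm38) reference, so a difference on the CAST/EiJ chromosome was not seen here. There was 1 group with 2 biological replicates, no treatment and no second tissue. The tissue label speaks of a layer of the hippocampus without naming it, a further field gives hippocampus from 3 males, and both replicates carry the same donor identifier, so the spread between them may be partly technical.

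Wnt proteins are secreted lipid-modified ligands that bind a frizzled receptor together with the co-receptor Lrp5 or Lrp6. Without ligand, Axin, Apc and the kinase Gsk3b hold beta-catenin (Ctnnb1) in a complex that marks it for destruction; with ligand, dishevelled proteins take Axin to the membrane, beta-catenin accumulates, and in the nucleus it joins the TCF/LEF factors at their target genes. In the hippocampus the pathway is known for setting up the field from the cortical hem in the embryo, and after birth for neurogenesis in the dentate gyrus, dendrite growth and synapse formation.

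A promoter was taken as 1000 bp either side of any annotated start site, and a gene was called open if a peak of the replicate's longer list touched it. A gene with no such peak in either replicate is called closed. Where a gene has several start sites their windows were pooled, so its window and its peak count can cover more bases. Open promoters were found in both replicates at 34 of the 49 genes (69.4%, exact 95% interval 54.6 to 81.7), beside 62.6% of all protein-coding genes. All 6 cytoplasmic transducers, all 4 nuclear factors and 11 of 12 receptors (91.7%) were open in both replicates, as were 6 of 8 secreted modulators, but only 7 of 19 ligands (36.8%, exact 95% interval 16.3 to 61.6). Over the 30 genes that are not ligands the share was 90.0%. No test was made between the roles, since the genes were chosen as a list and are not replicates of anything. The intervals treat the genes as independent draws, which neighbouring genes are not, and are no test against all genes. With promoters narrowed to 500 bp either side, the open ligands went from 7 to 3 while the share over all genes was 61.0%; the 4 that dropped out were Wnt7b, Wnt9a, Wnt11 and Wnt16.

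**Figure D1:**
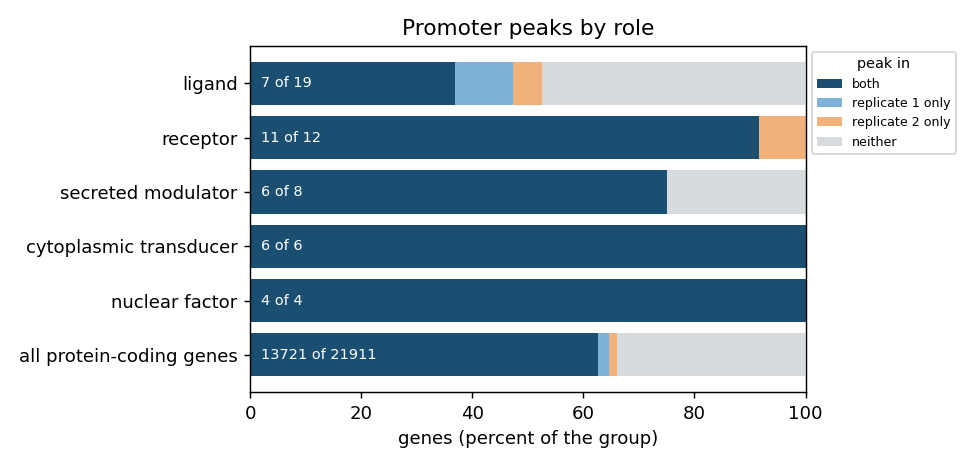
Share of genes (percent of each role) with a promoter peak in both replicates, in 1 replicate or in neither, for the 5 roles and for all 21911 protein-coding genes; the numbers in the bars count the genes open in both. The ligands stand at 7 of 19, below the 62.6% of all genes, and the receptors at 11 of 12.

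Of the 9 closed ligand promoters 5 were rich in CpG, the dinucleotide whose density goes with open promoters in most tissues. The bases before the start site of Wnt7a, which was open, and of Wnt3a and Wnt9b, which were not, are shown to make this visible, with every CpG in capitals. They lie at chr6:91411364-91411603, chr11:59290753-59291001 and chr11:103749822-103750071 (mm10, minus strand, upstream of each gene) and follow the RefSeq promoter table for GRCm38.p6.
Wnt7a promoter: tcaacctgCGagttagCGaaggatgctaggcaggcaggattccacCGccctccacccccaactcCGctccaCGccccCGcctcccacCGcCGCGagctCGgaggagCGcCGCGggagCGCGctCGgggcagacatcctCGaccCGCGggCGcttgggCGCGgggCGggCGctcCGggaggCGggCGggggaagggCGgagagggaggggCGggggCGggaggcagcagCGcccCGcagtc
Wnt3a promoter: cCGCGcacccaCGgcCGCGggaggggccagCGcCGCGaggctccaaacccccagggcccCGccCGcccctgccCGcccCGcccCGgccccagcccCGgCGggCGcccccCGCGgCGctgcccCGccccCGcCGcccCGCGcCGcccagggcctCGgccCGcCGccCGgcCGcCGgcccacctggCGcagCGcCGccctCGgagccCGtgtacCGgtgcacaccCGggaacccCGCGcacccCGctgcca
Wnt9b promoter: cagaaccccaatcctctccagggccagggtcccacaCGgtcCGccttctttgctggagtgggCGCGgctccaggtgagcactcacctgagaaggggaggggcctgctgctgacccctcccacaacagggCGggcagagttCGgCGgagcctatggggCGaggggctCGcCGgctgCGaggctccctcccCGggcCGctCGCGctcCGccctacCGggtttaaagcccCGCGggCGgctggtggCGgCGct
The Wnt7a stretch held 32 CpGs in 240 bases, the Wnt3a stretch 41 in 249 bases and the Wnt9b stretch 22 in 250 bases. The GC content was highest at Wnt3a, with 87.6%, and was 77.1% at Wnt7a. The closed Wnt3a promoter thus held more CpGs than the open Wnt7a promoter and the closed Wnt9b promoter fewer. By the CpG ratio used below, which allows for GC content and covers a wider window, Wnt7a stood above Wnt3a (0.815 and 0.749).

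The second set of sequences holds the letters bound by the pathway's own nuclear factors, ATCAAAG or TTCAAAG on either strand (CTTTGAT or CTTTGAA when read on the other strand). They are shown for Axin2, a direct target gene that feeds back on the pathway, and for Tcf7l1, because these were the only members with such letters in a promoter footprint, a short stretch spared by DNase I, or in the 5 bp on either side of it. Each line gives 30 bases of the mm10 plus strand with the letters in capitals, at chr11:108920416-108920445, chr11:108920779-108920808, chr11:108921221-108921250 and chr6:72789719-72789748.
Axin2 footprint 1: agccggctgcgCTTTGATaaggtcctggca
Axin2 footprint 2: tcggctcgcgcCTTTGAAgtgcacagttaa
Axin2 footprint 3: cggccggcgcgCTTTGATgtgcggggcggc
Tcf7l1 footprint 1: attttgtgacaCTTTGAAacaagttgagcg
The first Axin2 stretch lies in an untranslated exon, 82 bp after a start site, and the others are intronic at 445 and 887 bp. The Tcf7l1 stretch lies 480 bp upstream of the gene.

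The tissue label was checked on genes that mark cell types. All 7 hippocampal neuron genes tested (among them Prox1 of dentate granule cells and Neurod6 of pyramidal cells) were open in both replicates, as were 4 of 6 astrocyte, 2 of 6 oligodendrocyte, 1 of 5 microglial, 2 of 6 endothelial and 2 of 6 choroid plexus and ependyma genes. Of 6 thalamic and hindbrain genes 3 were open, and of 3 liver genes 1 (Apob). Open chromatin in tissue is a mixture: a low value from a few cells of one type and a low value in all cells cannot be told apart. The part that any one cell type had in the values below was not tested. The 2 replicates had 115072 and 95711 peaks. The authors' value per peak has no stated unit and ran higher in replicate 2 (median ratio 1.25 over all open promoters), so it ranks peaks within a replicate. The mean ± SD (n = 2) given below therefore carries this difference of scale as well.

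The cytoplasmic transducers, which relay the signal inside the cell, had the highest promoters of the 5 roles. Ctnnb1, which encodes beta-catenin (chr9:120929216-120960507), had a highest promoter peak of 4.45 in replicate 1 and 5.34 in replicate 2 (4.89 ± 0.631). Dvl1, a dishevelled gene that links receptor to Axin, stood at 3.90 and 5.58 (4.74 ± 1.18). These placed both high among open promoters, at percentiles 83.4 and 81.3 for Ctnnb1 and 75.8 and 83.8 for Dvl1.

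Axin2 had 2.86 and 3.49 (3.18 ± 0.442). Dvl2 had 2.81 and 3.42 (3.12 ± 0.425). Axin1, the constitutive scaffold of the destruction complex, had 2.65 and 3.24 (2.94 ± 0.414). The order Axin2, Dvl2, Axin1 was the same in both replicates. Their ranges over the replicates overlapped, which includes the difference of scale, and no test was made between them. Dvl3 was lowest with 2.07 and 2.79, and its window also holds the start of the non-coding gene Gm16618. Replicate 2 was higher for all 6 genes. In each replicate 5 of the 6 lay above the median of all genes open in both, which was 2.54 and 3.20, while over all 34 open members it was 9 and 10.

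**Figure D2:**
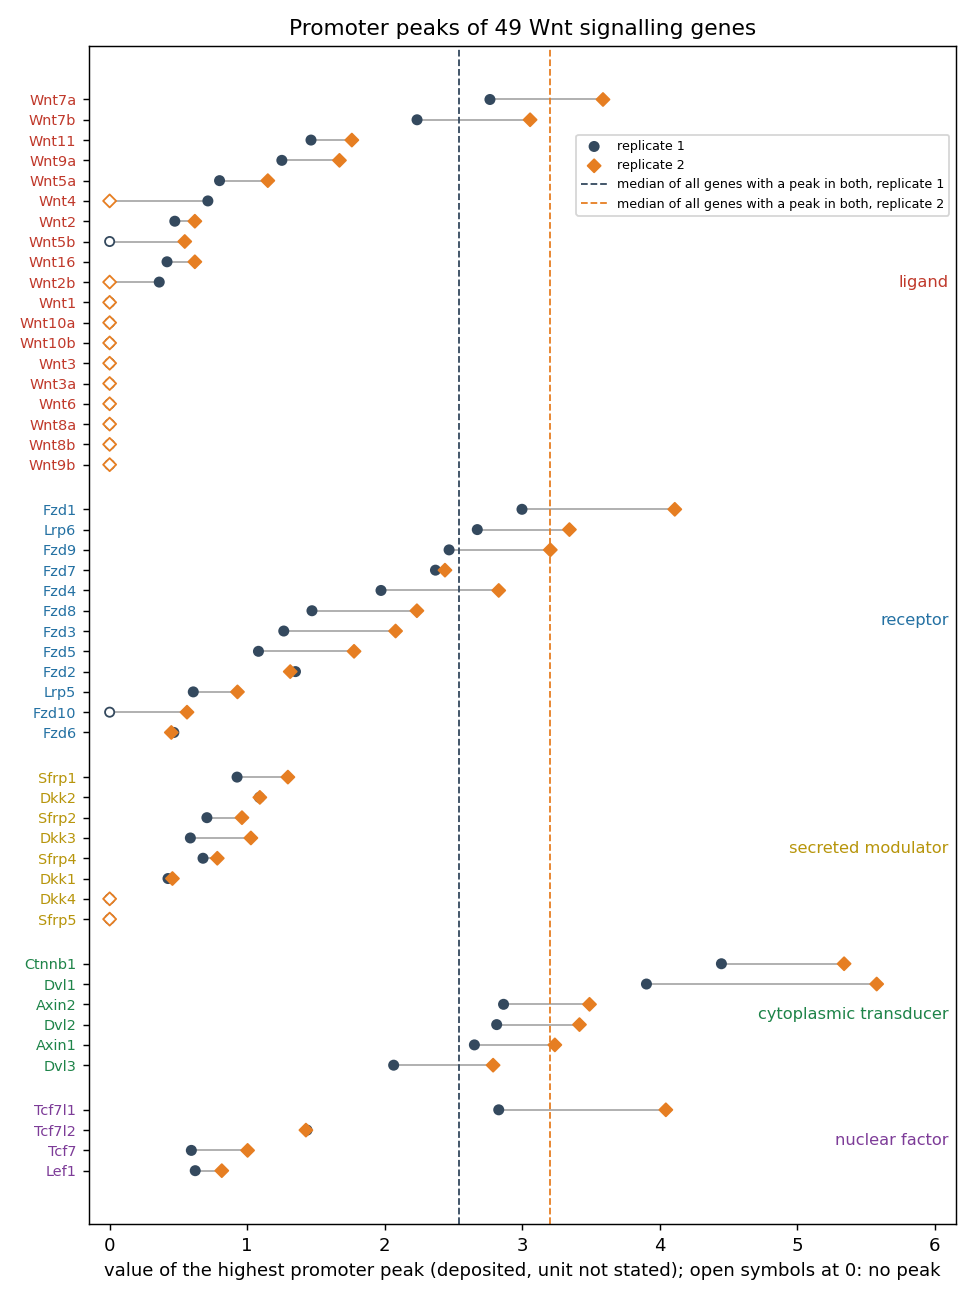
Value of the highest promoter peak (deposited value, unit not stated) of each of the 49 genes in replicate 1 (circles) and replicate 2 (diamonds), ordered by role and mean; open symbols at 0 mark no peak, and dashed lines the medians of all genes open in both (2.54 and 3.20). Ctnnb1 and Dvl1 stand highest, and 9 ligands sit at 0 in both replicates.

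Among the receptors, 9 of the 10 frizzled genes and both co-receptor genes were open in both replicates. Fzd1 was highest with 3.00 and 4.11 (3.55 ± 0.785), followed by the co-receptor Lrp6 with 2.67 and 3.34 (3.01 ± 0.474). Fzd9, which is known from hippocampal neurons and lies in the region lost in Williams syndrome, had 2.47 and 3.20 (2.84 ± 0.521), and Fzd7 had 2.37 and 2.44 (2.40 ± 0.0486). These 4 do not overlap in either replicate with Lrp5, the second co-receptor, which had 0.608 and 0.929. Fzd4, the receptor of Norrin in vessels, had 1.97 and 2.83. Fzd8 had 1.47 and 2.23, Fzd3, which guides axons in the polarity branch, 1.27 and 2.08, Fzd5 1.08 and 1.78, and Fzd2 1.35 and 1.31. The ranges of these 5 genes over both replicates overlapped from each to the next, which includes the difference of scale. Within each replicate Fzd4, Fzd8, Fzd3 and Fzd5 kept this order. Fzd2 stood above Fzd3 in replicate 1 and below Fzd5 in replicate 2. Fzd6 was lowest with 0.467 and 0.448, at percentiles 5.42 and 2.78, and the highest peaks of the replicates did not overlap there or at Fzd8. The Lrp6 promoter thus stood at percentiles 54.1 and 53.5 of open promoters and that of Lrp5 at 8.95 and 12.3.

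Most receptor promoters were wide more than high. Stretches with a cut rate false discovery rate under 0.05, as the authors list them, covered a median of 80.9% and 75.7% of the window at the 11 open receptors, against 48.9% and 46.7% at all genes open in both. These shares were not matched for window size, which can grow with the number of start sites. Fzd8 had 93.7% and 91.2% of its window covered, Fzd7 80.9% and 97.9%, Fzd4 89.2% and 90.6%, and Fzd1 81.9% and 90.1%. Lrp5, with 21.7% and 30.4%, and Fzd6, with 19.3% and 26.7%, lay below the medians of all genes open in both. Only 2 and 3 of the 11 receptors lay above the median value of all open promoters. Many frizzled genes are short and nearly without introns, so a part of the gene itself falls in the window: the Fzd9 gene spans 2.29 kb, Fzd2 3.66 kb and Fzd1 4.20 kb.

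Fzd10 was the only receptor not open in both replicates. It had no peak and no listed stretch in replicate 1, but in replicate 2 it had 4 peaks of up to 0.563, with 777 bp or 38.8% of the window under listed stretches. Over all genes, 1.94% were open in replicate 1 only and 1.50% in replicate 2 only. The window also holds the start of 5930412G12Rik.

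The ligands fell into 7 open genes, 3 open in 1 replicate and 9 open in neither. Wnt7a (chr6:91363981-91411363) was the strongest, with 2.77 in replicate 1 and 3.59 in replicate 2 (3.18 ± 0.582), and 87.9% and 93.9% of its window was covered. Wnt7b, its close relative, had 2.24 and 3.06 (2.65 ± 0.582). Both signal to vessels and synapses in the brain, and both stood close to the middle of open promoters, at percentiles 56.0 and 57.2 for Wnt7a and 45.3 and 48.8 for Wnt7b. Wnt11, a ligand of the non-canonical branch, had 1.46 and 1.76 (1.61 ± 0.210), and Wnt9a 1.25 and 1.67 (1.46 ± 0.297).

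These peaks did not all sit on the start site. The highest peak was centred 768 bp before the nearest start at Wnt7b and 774 bp before it at Wnt11, in both replicates. At Wnt11 that start is an internal one, and the peak (chr7:98837961-98838180) lies inside the gene. With only the outermost start site of each gene, Wnt11 was not open in both replicates. At Wnt9a the highest peak was centred 1049 and 1061 bp after the start, so that only its edge reached the window. At Wnt7a it was 518 and 448 bp before the start. The covered share of the window was small at Wnt7b (5.38% and 16.5%), Wnt11 (8.40% and 23.6%) and Wnt9a (4.09% and 18.8%). Wnt7b has 5 start sites and Wnt11 2, so the same bases give a smaller share of their pooled windows. In bases, 309 and 948 bp were covered at Wnt7b, 336 and 946 bp at Wnt11 and 82 and 377 bp at Wnt9a. Dkk3, with 1 start site, had 265 and 936 bp, or 13.2% and 46.8%. The windows of Wnt7a and Wnt7b also hold the starts of the non-coding genes Gm30437 and AU022754, and reads of a shared window cannot be divided between them.

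The remaining open ligands were low but in part broad. Wnt5a, the main non-canonical ligand, had 0.799 and 1.15 with 6 and 5 listed peaks over its 2 start sites, and 74.8% and 63.9% of its window was covered. Wnt2 had 0.474 and 0.620 with 3 and 4 peaks and 75.1% and 85.0% covered. Among the 2885 genes in the lowest 25% of values in both replicates, these covered shares put Wnt2 at percentiles 96.3 and 97.9 and Wnt5a at 96.2 and 91.6. Wnt16 had 0.417 and 0.620, with 28.3% and 21.2% covered. The Wnt5a window also holds the start of Gm2670.

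**Figure D3:**
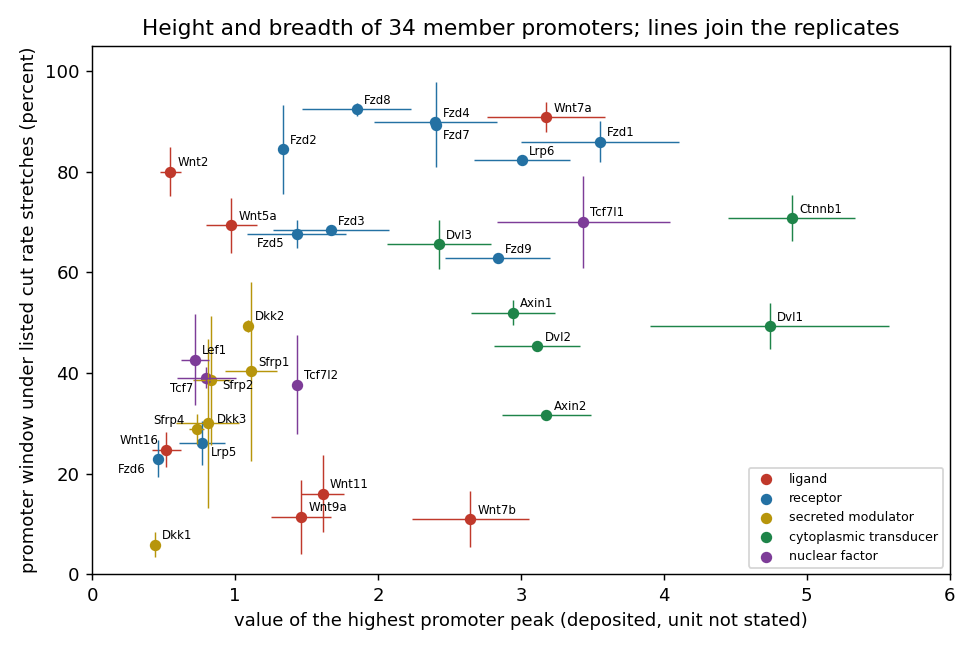
Value of the highest promoter peak (horizontal axis, deposited value, unit not stated) against the percent of the promoter window under listed stretches (vertical axis) for the 34 genes open in both replicates; points are means and lines join the 2 replicates. Wnt2 and Wnt5a are low but wide, and the covered share is small at Wnt7b, Wnt9a and Wnt11. Windows of several start sites were pooled, 5 at Wnt7b and 2 at Wnt11.

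Of the ligands open in 1 replicate only, Wnt4 had a single peak of 0.714 in replicate 1, Wnt2b a single peak of 0.361 in replicate 1, and Wnt5b 4 peaks of up to 0.546 in replicate 2. Wnt5b had 27 bp under listed stretches in replicate 1 and 617 bp in replicate 2. The 9 ligands open in neither were Wnt1, Wnt3, Wnt3a, Wnt6, Wnt8a, Wnt8b, Wnt9b, Wnt10a and Wnt10b. Several of these, such as Wnt3a and Wnt8b of the cortical hem and Wnt1 of the midbrain, are known from patterning of the embryonic brain. Together with Dkk4 and Sfrp5, 11 members (22.4%) were open in neither replicate, beside 33.9% of all genes. At 10 of the 11 (90.9%) the whole window held no listed stretch in either replicate, beside 97.3% of all genes without a promoter peak; the exception was Wnt9b with 42 bp in replicate 2.

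Of the 9 closed ligands 6 lay within 100 kb of another closed ligand. The mouse genome holds 4 pairs of these members less than 100 kb apart, all of them ligands: Wnt6 and Wnt10a on chromosome 1 (6.19 kb apart), Wnt3a and Wnt9a (16.2 kb) and Wnt9b and Wnt3 (24.3 kb) on chromosome 11, and Wnt10b and Wnt1 (11.7 kb) on chromosome 15. Of these 8 genes 7 had no promoter peak in either replicate, and only Wnt9a had one. Over all ligands 47.4% had none, and over all protein-coding genes 33.9%. The share over all genes that lie this close to another was not counted, so these counts have no matched background. Neighbouring genes share their surroundings and are not independent.

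Many ligands with a CpG-rich promoter were not open. The CpG ratio, the observed over the expected number of CpGs within 500 bp of the start site where it was highest, was 0.6 or more at 11083 genes, of which 94.8% were open in both replicates, and lower at the others, of which 29.6% were open. Of the 14 ligands with a ratio of 0.6 or more, 6 were open in both replicates (42.9%), as was 1 of the 5 with a lower ratio, whereas of the 25 other members it was 23 (92.0%). The CpG-rich ligands open in neither were Wnt3 (0.617), Wnt10b (0.635), Wnt6 (0.731), Wnt3a (0.749) and Wnt9b (0.752), and those open in 1 replicate were Wnt2b (0.803), Wnt4 (0.859) and Wnt5b (1.01). With promoters of 500 bp either side, 3 CpG-rich ligands were open (Wnt2, Wnt5a and Wnt7a), beside 94.2% of CpG-rich genes. Wnt1 fell just under the limit with 0.582. In the other direction, 4 of the 5 secreted modulators with a ratio under 0.6 were open in both replicates.

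**Figure D4:**
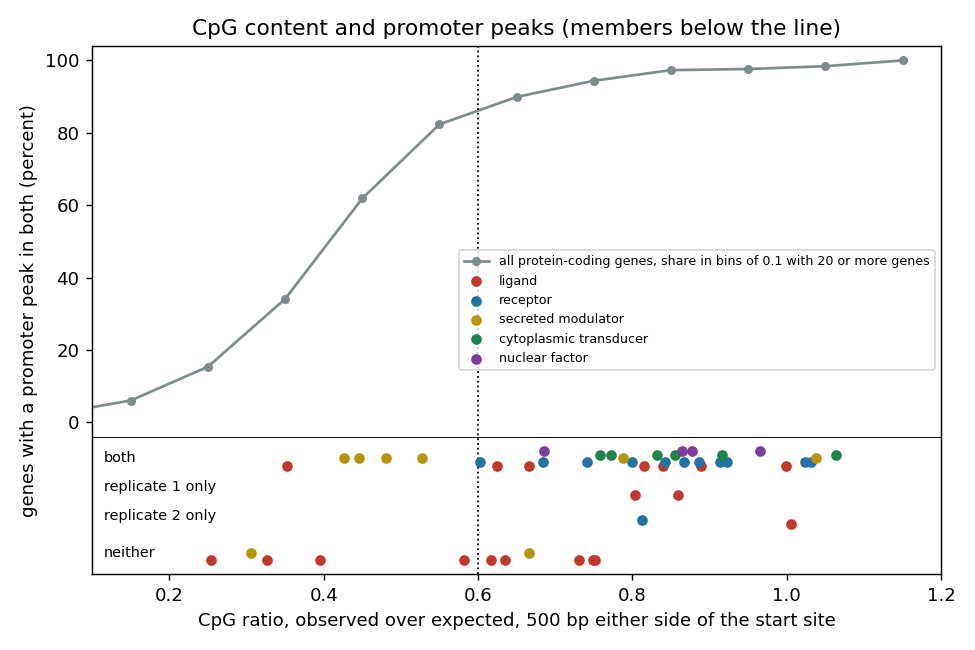
CpG ratio at the start site (horizontal axis, observed over expected): the line shows the percent of all protein-coding genes open in both replicates in bins of 0.1, and the points below it show each of the 49 genes by role, in the row of its promoter call; the dotted line marks 0.6. Red points of ligands lie in the bottom row on both sides of 0.6; 5 of them lie to the right of it.

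The secreted modulators, which trap Wnt proteins (Sfrp) or block Lrp5 and Lrp6 (Dkk), were low throughout. None of the 6 open genes lay above the median of open promoters in either replicate. Sfrp1 was highest with 0.926 and 1.30 (1.11 ± 0.262), and Dkk2 had 1.09 and 1.09 (1.09 ± 0.00245), from a peak centred 1051 and 1041 bp before its start. Sfrp2 had 0.707 and 0.962 (0.835 ± 0.180), and Dkk3, the divergent member of the dickkopf family, 0.587 and 1.03 (0.807 ± 0.311). Sfrp4 had 0.679 and 0.783 and Dkk1, the canonical Lrp6 blocker, 0.424 and 0.457, at percentiles 4.37 and 2.92. The values of Sfrp1 and Dkk2 overlapped, as did those of Sfrp2 and Dkk3, while Dkk2 lay above both values of Sfrp2. Dkk4 and Sfrp5 had no peak and no listed stretch in either replicate.

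All 4 genes of the TCF/LEF factors, which bring beta-catenin to DNA, were open. Tcf7l1, mostly a repressor, was highest with 2.83 and 4.04 (3.44 ± 0.859). Tcf7l2 had 1.44 and 1.43 (1.43 ± 0.00619), and each of its 9 annotated start sites had a peak within 1000 bp in both replicates. The start sites shared 3 peaks in replicate 1 and 4 in replicate 2. Tcf7 had 0.594 and 1.00 (0.798 ± 0.289) and Lef1, a factor of the developing dentate gyrus, 0.622 and 0.815 (0.719 ± 0.137). Tcf7l1 and Tcf7l2 did not overlap with each other or with the other pair, while the ranges of Tcf7 and Lef1 overlapped. At Tcf7 the highest peaks of the replicates did not overlap. Lef1 had 5 listed peaks in each replicate over its 2 start sites, and its window also holds the start of Gm43352.

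Several promoter peaks per gene, counted over all its start sites, were frequent in this family. Listed peaks are not always separate: 3654 in replicate 1 and 3159 in replicate 2 overlapped the next one. At least 3 promoter peaks were found at 14 of the 34 open members in replicate 1 (41.2%) and 16 in replicate 2 (47.1%), beside 25.2% and 22.0% of all genes open in both. The highest value of open members nevertheless had a median of 1.39 and 1.77, below the 2.54 and 3.20 of all genes. The ratio of replicate 2 over replicate 1 lay between 0.961 at Fzd6 and 1.75 at Dkk3, with a median of 1.32, beside 1.25 over all open genes.

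Footprints gave a second readout of the promoters. A footprint was listed in both replicates at 31 of the 49 genes (63.3%), beside 61.1% of all genes. Of the receptors 11 had one, of the ligands 5, of the secreted modulators 5, and all transducers and nuclear factors. In and around the members 540 and 572 footprints were listed, with a median width of 9 bp. Of these, 34.8% and 32.7% were found in the other replicate. These shares count single footprints and were not set beside those of all footprints. Counted by gene, 34 members had a promoter footprint in replicate 1, 34 in replicate 2 and 31 in both. By promoter peak, also counted by gene, 36 members were open in each replicate, beside 64.6% and 64.1% of all genes. Of the 36 open in replicate 1, 34 were also open in replicate 2.

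Axin2 had the most promoter footprints with these letters in replicate 2, while in replicate 1 it had 1, as did Tcf7l1. Axin2 limits the pathway by rebuilding the destruction complex and is transcribed in response to beta-catenin. Searched with 5 bp either side, 1 promoter footprint in replicate 1 and 3 in replicate 2 held the TCF/LEF letters in the stretches printed above. Only the second stretch had all 7 letters inside the footprint itself, and the stretches at 82 and 887 bp had 5 of the 7, the rest falling in the 5 bp beside it. At the first stretch the footprint was listed in both replicates. The second was listed in replicate 2, where a footprint of replicate 1 touched the 30 bases without covering the letters, and the third in replicate 2 alone. At least 1 such footprint was found at 190 genes in replicate 1 (0.867%), 198 in replicate 2 (0.904%) and 97 in both (0.443%), and of the members these were Axin2 and Tcf7l1 in each case. At least 3 were found in replicate 2 at 1 of 21911 genes, Axin2, and in replicate 1 at 0. This count was singled out after its values were seen, and the letters are a match, not a measured binding. The count makes no allowance for the number of footprints per gene. Axin2 had 12 promoter footprints in replicate 1 and 24 in replicate 2, over the pooled windows of its 2 start sites. The Tcf7l1 footprint was listed in both replicates, held 2 and 4 of the 7 letters itself, and lay in no listed peak.

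Over all footprints at members, 3 of 540 (0.556%) and 5 of 572 (0.874%) held the TCF/LEF letters when searched with the same 5 bp, beside 0.305% and 0.253% of all footprints. The remaining ones were near Lef1 and in Wnt10a, each in 1 replicate. In promoter sequence without regard to footprints the letters were not more frequent: the RefSeq table had 43 promoters for 34 of the 49 members, 22 of them open in both replicates and the others not, and 3 of the 43 held the letters (6.98%), beside 8.65% of all promoters of the same length. The GC box GGGCGG, by contrast, was in 79.1% of these promoters and 35.7% of all. These shares were not matched for base composition. A CpG ratio of 0.6 or more was found at 39 of the 49 members, beside 11083 of 21911 genes.

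Within the gene bodies and 10 kb on each flank, but away from any promoter, 114 peaks of replicate 1 overlapped a peak of replicate 2. Of these 60 lay in introns, 21 in exons and 33 between genes. At least 1 was found at 36 members (73.5%), beside 56.6% of all genes, and the median was 2 per member and 1 per gene. Per 100 kb the median was 4.08 at members and 1.55 at all genes. Since long genes hold more peaks, each gene was also set against the median of genes of like length (deciles of length), which 29 members exceeded (59.2%), beside 37.3% of all genes. With promoters of 2500 bp either side, or sharing of 50% of each peak, the member median was 1, as over all genes, while 57.1% and 65.3% of members had at least 1 such peak, beside 50.1% and 50.7%. Peaks of a list that overlapped each other were counted separately. With such peaks merged the 114 sites became 109, the member median was 2 and 73.5% of members had at least 1.

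Ligands held 52 of the 114 sites (45.6%) and nuclear factors 25 (21.9%). The ligands' median was 3 peaks, or 5.97 per 100 kb, and 14 of 19 (73.7%) lay above the median of their length decile, beside 15 of 30 of the others. The 4 nuclear factors, most of them longer genes, had 2, 4, 9 and 10, and 3 of the 4 lay above the median of their decile. Only Wnt4 and Wnt10b had none. Ligands with a closed promoter were included: Wnt10a had 7 shared peaks and Wnt6 4, with 3 sites counted for both genes, and Wnt3, Wnt3a, Wnt8a, Wnt8b and Wnt9b had 3 each. The site at chr11:59298071-59298226 was counted for both Wnt3a and Wnt9a. At Wnt8b the peaks at chr19:44511371-44512124 and chr19:44511941-44512000 overlap each other. At Wnt9b the sites at chr11:103721461-103721660 and chr11:103722081-103722250 lie in intron sequence of another gene, C130046K22Rik. Wnt1 had 1, so that 8 of the 9 ligands without a promoter peak had a shared peak elsewhere in the gene or its flanks.

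**Figure D5:**
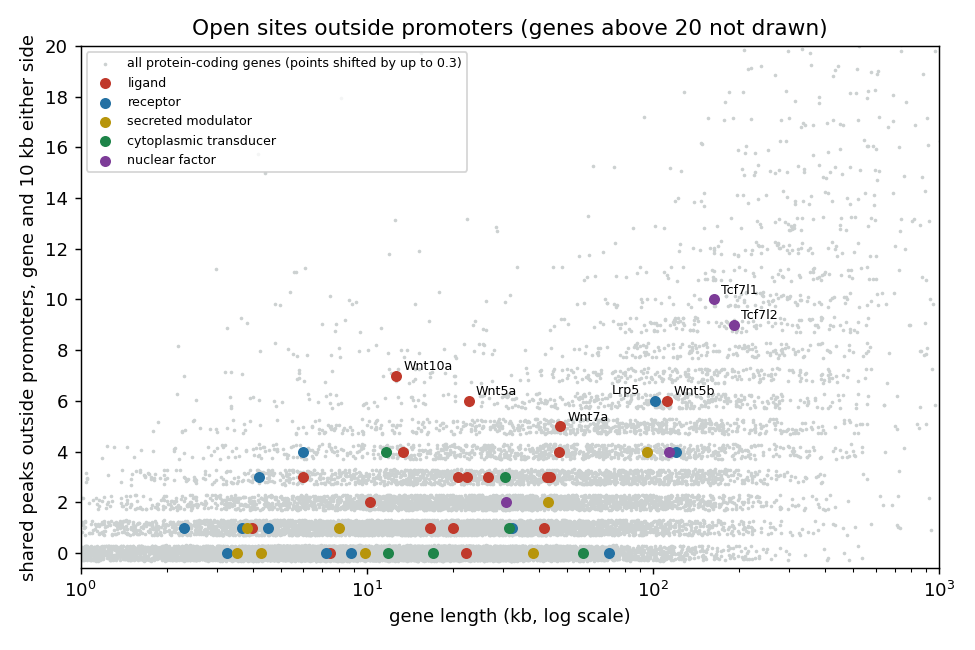
Number of non-promoter peaks found in both replicates per gene with flanks of 10 kb (vertical axis) against gene length (horizontal axis, kb, log scale) for the 49 genes by role and all protein-coding genes (grey, shifted by up to 0.3 to part the points). Tcf7l1 with 10 and Tcf7l2 with 9 are long genes, whereas Wnt10a reaches 7 with a length of 12.7 kb.

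Tcf7l1 (163 kb) had the most with 10 shared peaks, from 15 peaks in replicate 1 and 12 in replicate 2. Those at chr6:72711401-72711880 and chr6:72711861-72712078 overlap each other and were counted separately. Tcf7l2 (192 kb) had 9, from 11 and 15, and Wnt10a (12.7 kb) 7, from 9 and 7. Wnt5a, Wnt5b and Lrp5 had 6 each, from 6 and 10, 9 and 10, and 11 and 7, and Wnt7a had 5 from 9 and 13. A further group with 4 was tied for the next place: Wnt6, Wnt7b, Lef1, Lrp6, Fzd8, Dkk2 and Dvl2. All 4 at Dvl2 lay in its flank and in intron sequence of the neighbouring gene Dlg4, none in Dvl2 itself. The replicates disagreed most at Dvl1, with 0 and 8 peaks and none shared, and at Wnt3, with 3 and 11. Both genes had more peaks in replicate 2, which had fewer peaks in all.

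The highest shared site lay in the flank of Dvl2, at chr11:70021361-70021760, with 5.19 and 5.28, but within an intron of the synaptic scaffold gene Dlg4, and its rank by the mean of both replicates was 147 of 50266. By that mean the next lay at chr1:74808201-74808420, beyond the end of Wnt10a, with 3.68 and 3.55. The site at chr11:59302801-59303020, 4017 bp before Wnt9a and between it and Wnt3a, had 3.78 and 3.38, overlapping with the one at Wnt10a. The site at chr3:104968061-104968260, 6240 bp before Wnt2b, had 2.72 and 3.30. The site in an intron of Axin2 at chr11:108925301-108925500 had 2.48 and 3.04. So 3 of the 5 highest sites lay between genes beside ligands. Wnt10a had no promoter peak, and the site beyond it is printed because it was the highest one outside any gene by the mean and in replicate 2, while in replicate 1 the site before Wnt9a was higher. The plus strand is given with letters of 2 kinds in capitals, CAGATG or CAGCTG of the basic helix-loop-helix factors and a consensus of CTCF, the insulator protein, each on either strand.
Wnt10a site: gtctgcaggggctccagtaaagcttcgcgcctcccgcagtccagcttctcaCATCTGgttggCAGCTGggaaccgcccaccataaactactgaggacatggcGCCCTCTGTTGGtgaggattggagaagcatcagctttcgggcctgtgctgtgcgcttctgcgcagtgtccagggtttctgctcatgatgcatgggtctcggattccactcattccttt
The site had 3 footprints in replicate 1 and 2 in replicate 2. Over all 114 sites the median value was 0.796 and 0.921, beside 0.700 and 0.742 over all shared peaks outside promoters, and 90 of the 114 (78.9%) had a footprint in both replicates, beside 72.7% of all 50266 sites.

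The TCF/LEF letters were not frequent at these sites. In windows of 300 bp at the centre, 8 of 114 sites held them (7.02%, exact 95% interval 3.08 to 13.4), beside 9.92% of all 50266 sites, so the interval covers the share of all sites. With ATCAAAG alone it was 2.63%, beside 3.94%. Of the sites with the letters, that in an intron of Lrp6 at chr6:134470941-134471140 was highest (0.806 and 1.32). The values of the next pair overlapped: a site 4250 bp before Lef1 at chr3:131105981-131106460 had 0.728 and 0.921, and one in an intron of Wnt11 at chr7:98836775-98836980 had 0.785 and 0.856. The Lrp6 and Wnt11 sites, which are under 300 bp wide, are shown on the plus strand with the letters in capitals.
Lrp6 TCF/LEF site: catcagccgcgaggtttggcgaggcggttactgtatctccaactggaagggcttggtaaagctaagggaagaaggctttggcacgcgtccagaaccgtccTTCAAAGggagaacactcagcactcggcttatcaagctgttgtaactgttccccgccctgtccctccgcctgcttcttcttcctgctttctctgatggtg
Wnt11 TCF/LEF site: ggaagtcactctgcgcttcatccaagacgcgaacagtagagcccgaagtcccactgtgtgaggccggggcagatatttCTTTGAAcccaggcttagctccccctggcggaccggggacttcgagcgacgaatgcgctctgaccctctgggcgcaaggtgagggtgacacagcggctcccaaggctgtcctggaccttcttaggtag
Of the other letters, the GC box was in 21.1% of member sites (14.0 to 29.7) and 11.2% of all, the CTCF letters in 15.8% and 13.4%, and the helix-loop-helix letters CAGATG in 31.6% and 34.3%. TAATTA of homeodomain factors was in 3.51% and 6.40%, TGANTCA of AP-1 in 7.89% and 10.4%, and ACAAAG of SOX factors, which can overlap the TCF/LEF letters, in 16.7% and 22.9%. None of these shares was matched for base composition.

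Of 63 further genes of Wnt signalling, 57 had a promoter peak in both replicates (90.5%), beside 62.6% of all protein-coding genes. Of the 52 among them with a CpG ratio of 0.6 or more it was 50 (96.2%), beside 94.8% of all CpG-rich genes. The 57 included all 12 of the destruction complex and its kinases, all 9 of planar polarity, all 7 feedback and target genes and all 5 other receptors. Nuclear cofactors were open at 9 of 10, secreted or surface inhibitors at 6 of 8, the R-spondin axis at 7 of 9 and secretion genes at 2 of 3. The highest were Btrc, the ubiquitin ligase subunit for beta-catenin, with 8.44 and 11.9 (10.2 ± 2.44), Csnk1d with 7.65 and 9.09 (8.37 ± 1.02) and the co-repressor Tle4 with 7.63 and 8.57 (8.10 ± 0.664). Gsk3b had 7.18 and 7.55 (7.36 ± 0.263) and Tle1 5.60 and 7.13 (6.36 ± 1.08). All 5 exceeded every member in both replicates. The closed genes were Rspo1, Rspo4, Sost, Kremen2 and Tle2, of which 4 encode secreted or surface proteins, and Notum, a Wnt deacylase, had a peak of 0.580 in replicate 1 only.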

How the data were processed

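DNase-seq of 1 group of 2 replicates was analysed. Per the deposited file descriptions, each file came from 1 library aligned to mm10. Which aligner and which peak caller were used is not given in the sources used here. The authors deposited a signal for each peak with no unit or normalization stated. Every value was a whole multiple of a step (0.00707 and 0.00815, tolerance 0.05 of a step), and the median peak held 84 and 90 steps. Depth in reads is not known. Adjusted p-values (false discovery rates) were deposited for stretches of the cut rate, all under 0.05, and for footprints, all 0.01.

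Start sites came from the GENCODE M21 basic set, with sequence from GRCm38.p6. Peaks shared at least 1 bp. Intervals are exact binomial (Clopper-Pearson), treat genes or sites as independent and cover counting error only. Python 3.11.15, pandas 2.3.3, NumPy 2.4.6, SciPy 1.17.1 and samtools 1.23.1 were used, and the overlap and letter searches were tested on simulated data. NFI, MEF2 and CRE letters were also searched, and were in 0, 0 and 0 of the 114 sites. No test was made, since there is 1 group. The members, though named by a rule without measured values, and the lists and measures were chosen with earlier results of these data known. Values were given for the 4 highest genes of each role, genes open in 1 replicate, those with most shared non-promoter peaks and the 5 highest sites by mean.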

Additional observations from a re-analysis of the deposited data

How the results depend on the processing

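Of 73 values under other settings, 59 stayed within 1.5 times of the reported value (for the letter share, within its interval). With promoters of 500 bp either side, 3 ligands and 3 CpG-rich ligands were open. The median of 2 shared peaks outside promoters per member was 5 with 50 kb either side, and 1 with the gene body only, with promoters of 2500 bp, with sharing of 50 percent of each peak, with the shorter peak list and with the peaks above the median value of each list. Their count of 114 was 224 with 50 kb, 73 with the gene body, 60 with the shorter list and 70 with the peaks above the median value. The letter share was 2.63% with ATCAAAG only. By construction, 50 kb admits more sites, and each of the other settings fewer sites, start distances or letters.

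With 1 replicate left out, open members were 36 to 36, open ligands 8 to 9, CpG-rich ligands 7 to 8, all open genes 14050 to 14147, members with a footprint 34 to 34, peaks outside promoters 168 to 173, their median 2 to 3 and the letter share 6.55 to 6.94%; a replicate alone requires no sharing. No paired analysis was possible because there is only 1 group. The settings for ligands, the comprehensive transcript set and merged peaks were chosen after seeing the data. With 2 replicates, an SD is a rough measure, and the genes open in 1 replicate only (Fzd10, Wnt2b, Wnt4, Wnt5b) rest on 1 library. Why the replicates differed there was not tested.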
